A study of Mus musculus with 9 samples.

Results

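The genes described here are 10 genes of the ATF4 integrated stress response, chosen by symbol. They are the transcription factors Atf4, Atf5 and Ddit3, the kinase Eif2ak3, the phosphatase subunit Ppp1r15a, the feedback and death-linked targets Trib3 and Chac1, and the amino acid enzymes Asns, Psat1 and Phgdh. Every symbol matched a gene of the 23309 in the files, and all 10 passed the minimum mean level of 1 FPKM that left 10497 genes for testing. FPKM are fragment numbers scaled by transcript length and by the mapped fragments of a library. RNA was sequenced from D2.0R cells, a mouse mammary tumour cell line that stems from a hyperplastic alveolar nodule. It rests in 3D culture on basement membrane extract (BME) but divides when type I collagen (COL) is mixed into the matrix. The 9 libraries are 3 replicates (a, b and c) each of cells grown on BME to day 1, on BME to day 5, and on BME + COL to day 5, all in low-glucose medium with low serum. Cells on BME + COL at day 1 were not analysed here, so between BME + COL at day 5 and BME at day 1 the matrix and the day change together and their parts cannot be told apart. All values come from 1 cell line on an artificial matrix, and the labels do not say whether replicates shared a day of culture. The p-values therefore measure only the spread between these libraries, pooled over the 3 groups although the BME + COL replicates lay closest together.

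Cells that run short of amino acids, oxygen or folding capacity in the endoplasmic reticulum activate kinases that phosphorylate the translation factor eIF2. General protein synthesis then drops, while the Atf4 mRNA is translated better, and ATF4 switches on genes for amino acid synthesis and uptake, for glutathione metabolism and, through CHOP (the product of Ddit3), for cell death. Because much of the control lies in translation, the level of the Atf4 mRNA does not give the level of the protein, which was not measured in these files. In tumour cells the pathway is known as a route by which they cope with poor supply and with the loss of matrix contact.

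ATF4 paired with a C/EBP protein binds a composite element whose core reads TGATGNAA, and the matches near the 10 genes are shown for that reason. A match describes letters and not binding. The 500 bases before each annotated start were searched on both strands of the mm9 genome, the build of the files. Of 25959 starts in RefSeq, 6.35% held the core, and among the 10 genes it was found before Ddit3, Asns and Chac1 (3 of 10). The related core TGACGNAA was held by 2.46% of starts and, among the 10, was found before Chac1 alone. The endoplasmic reticulum stress element (ERSE), a longer motif of the ATF6 branch of the unfolded protein response, was held by 0.13% of starts and by none of the 10, which says only that these letters are not in these windows. The matches with 10 bases to either side are given 5′ to 3′, with the core in capitals.
Ddit3, mm9 chr10:126727538-126727565, minus strand, opposite to the gene, core 301 bases before the start: ggggcggggaTGATGCAAtgtttggcaa
Chac1, mm9 chr2:119176775-119176802, minus strand, opposite to the gene, core 193 bases before the start: ctggcaggagTGATGCAAcggcagggaa
Chac1, mm9 chr2:119176718-119176745, plus strand, same as the gene, core 250 bases before the start: gccagcagccTGACGCAAtctgactcgc
Asns, mm9 chr6:7643215-7643242, minus strand, same as the gene, core 50 bases before the start: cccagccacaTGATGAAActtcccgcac
Ddit3 and Chac1 carry the same 8 letters, and Asns differs from them inside the core.

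Aligned sequence ran from 7.21 to 9.37 gigabases per library, and for transcripts of the 10 genes from 1 FPKM the interval that Cufflinks gives lay 1.21% to 25.9% to either side of the value (median 4.83%). A pair of libraries stood apart in these genes. BME day 5 replicate b lay below its groupmates in 10 of 10 genes, with a median gap of -0.60 on the log2 scale, and so did 79.8% of all genes tested (median gap -0.24). BME day 1 replicate c also lay below its groupmates in 10 of 10 genes (median gap -0.38), although only 29.8% of all genes did (median gap 0.08). Transcripts of genes under 300 nt made up 7.25% of the summed FPKM of BME day 5 replicate a, while its groupmates b and c had 0.67% and 1.33%. The BME + COL replicates lay closest together, with a coefficient of variation of 0.51% to 6.33% over the 10 genes. Between pairs of them, 24.1% to 44.1% of transcripts from 20 FPKM differed by more than their Cufflinks intervals allow. That does not show whether they came from separate cultures. Results that rest on BME day 5 replicate b or BME day 1 replicate c are given with and without them.

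**Figure D1:**
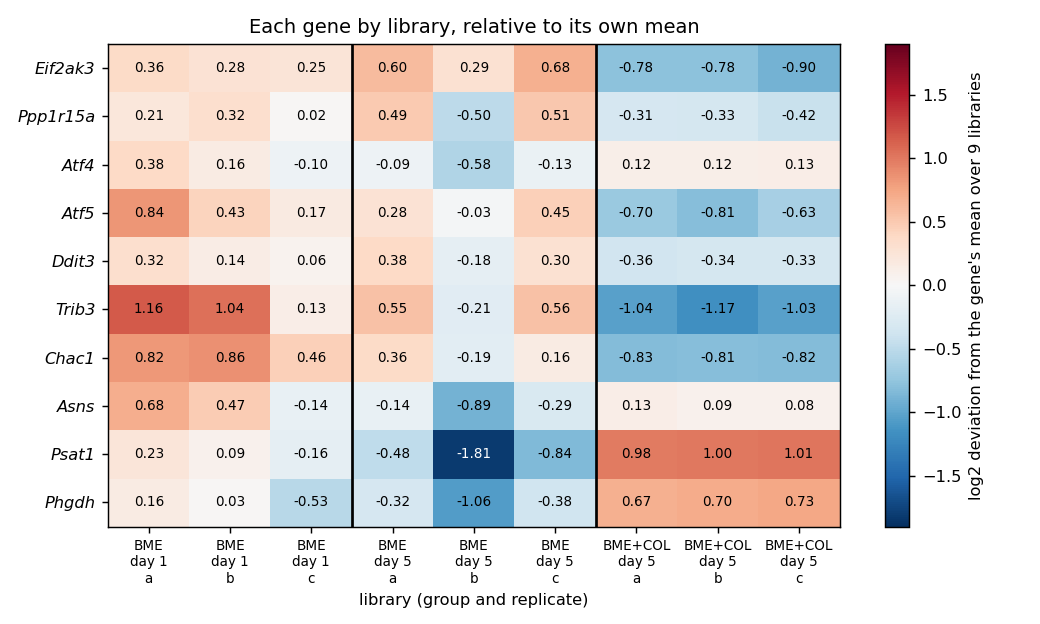
Deviation of each of the 10 genes (rows) in each library (columns) from the gene's own mean over the 9 libraries, in log2 units of FPKM + 0.1; black lines separate BME day 1, BME day 5 and BME + COL day 5. The 3 BME + COL columns are nearly alike, with Psat1 at 0.98 to 1.01 and Trib3 at -1.17 to -1.03, whereas Psat1 ranges from -1.81 to -0.48 on BME at day 5.

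The 10 genes did not move as a unit between the quiescent cultures on BME and the dividing cultures on BME + COL at day 5. The regulators and death-linked targets Eif2ak3, Atf5, Ddit3, Trib3 and Chac1 were higher on BME (5 of 10; 30.3% of all genes tested were higher). Psat1, Phgdh and Atf4 itself were lower on BME (3 of 10; 45.3% of all genes were lower). Asns and Ppp1r15a did not pass the test, which was limma with Benjamini-Hochberg adjustment over all genes. The median difference of the 10 genes was 0.51 on the log2 scale, beside -0.18 for all genes tested. Of the 8 calls, 7 stayed called in the same direction under all 21 alternative settings, and the exception was Atf4.

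From day 1 to day 5 on BME, 3 of the 10 genes fell (Asns, Chac1 and Psat1; 22.2% of all genes fell) and 0 rose, whether by the adjusted or the unadjusted p of limma (9.09% of all genes rose). Their median difference was -0.44, beside -0.15 for all genes. None of the 3 calls held under every alternative, and the rises numbered 0 to 2 over the alternatives. From BME at day 1 to BME + COL at day 5, Psat1 and Phgdh rose (2 of 10; 34.2% of all genes rose) and Atf5, Ddit3, Trib3, Chac1 and Eif2ak3 fell (5 of 10; 31.8% of all genes fell), with a median of -0.53 beside 0.03. The 3 comparisons share libraries, so their results are not independent of each other.

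**Figure D2:**
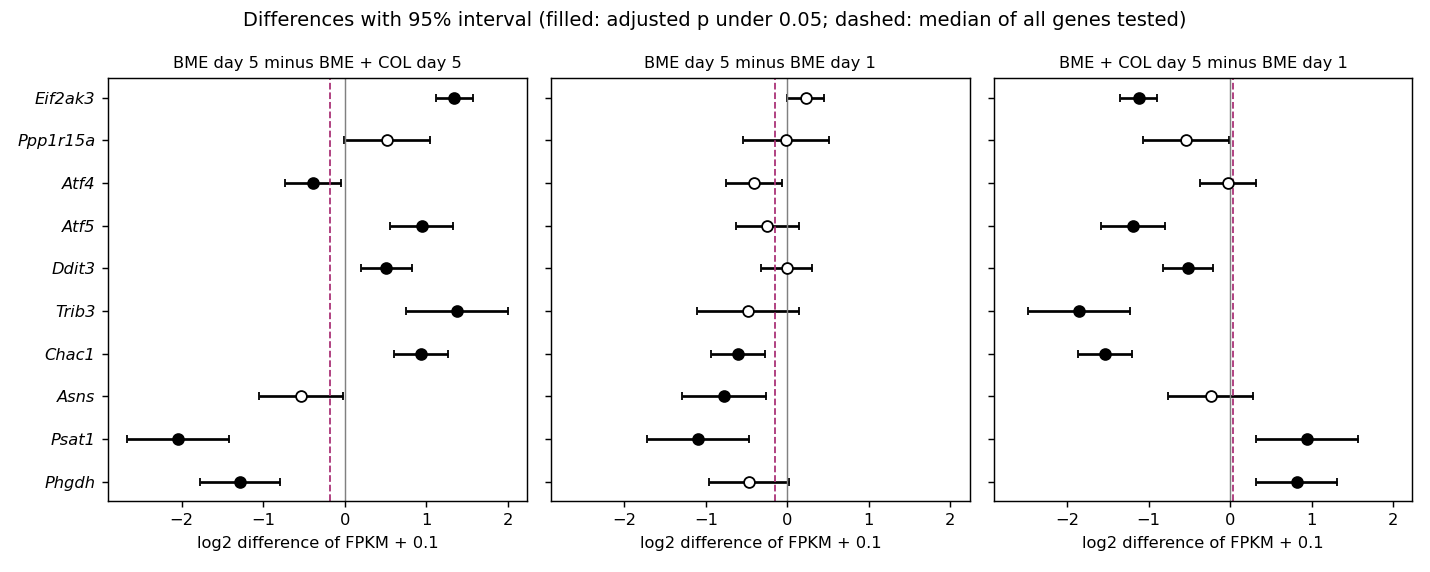
Differences of the group means in log2 units of FPKM + 0.1 for the 10 genes in the 3 comparisons, with 95% intervals from limma; filled points have an adjusted p under 0.05, and the dashed line is the median of all genes tested. Between BME and BME + COL at day 5 the points run from -2.04 for Psat1 to 1.38 for Trib3, while between the days on BME they run from -1.10 to 0.22.

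Eif2ak3 (mm9 chr6:70794521-70855234, plus strand, 17 exons) encodes PERK, the eIF2 kinase that senses misfolded proteins in the endoplasmic reticulum. It was at 8.63, 8.15 and 7.98 FPKM in replicates a, b and c on BME at day 1, at 10.2, 8.21 and 10.7 on BME at day 5, and at 3.86, 3.84 and 3.54 on BME + COL. Every BME library lay above every BME + COL library, and the BME days overlapped through replicate b of day 5. The level on BME at day 5 was 2.54-fold that on BME + COL (9.72 ± 1.34 against 3.75 ± 0.18 FPKM, SD, n = 3), a log2 difference of 1.34 (standard error, SE, 0.10, limma adjusted p = 3.03e-06). BME + COL lay below BME at day 1 by a log2 difference of -1.12 (SE 0.10, adjusted p = 1.55e-05). The days on BME differed by 0.22 (95% interval -0.00 to 0.45, adjusted p = 0.111). Without BME day 5 replicate b it was 0.34 and passed the test (adjusted p = 0.00564 from limma; 0.00414 to 0.288 over the alternatives). With all libraries kept, this difference also passed as TPM (0.346), with median-ratio scaling (0.366), with quantile normalization (0.375) and without genes under 300 nt (0.381).

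Ppp1r15a (chr7:52778288-52781638, minus strand, 3 exons) encodes GADD34, which directs a phosphatase to eIF2 and so ends the response. It was at 22.2, 23.9 and 19.4 FPKM on BME at day 1, at 26.9, 13.5 and 27.2 on BME at day 5, and at 15.4, 15.2 and 14.3 on BME + COL. Replicate b of BME day 5 had the lowest value of all 9 libraries, and its groupmates the highest. The difference between BME and BME + COL at day 5 was 0.52 (SE 0.23, limma adjusted p = 0.0678) with that library and 0.85 (adjusted p = 1.73e-05; 1.73e-05 to 0.231 over the alternatives) without it. With that library kept, the difference at day 5 also passed as TPM (0.87, adjusted p = 0.00131 from limma), with median-ratio scaling (0.70), with quantile normalization (0.79) and without genes under 300 nt (0.89). The days on BME differed by -0.02 (95% interval -0.55 to 0.51), and 0.32 without that library (adjusted p = 0.0196 from limma, the lowest over the alternatives, which reached 1.0). BME + COL lay at -0.54 from BME at day 1 without passing the test (adjusted p = 0.067). Those groups did not overlap, and without BME day 5 replicate b, whose spread enters the pooled error, the same difference had an adjusted p of 0.000176 (0.000176 to 0.177 over the alternatives). It passed in 6 of the 21 alternatives, the others being TPM (-0.76), median-ratio scaling (-0.58), quantile normalization (-0.64), the fit without genes under 300 nt (-0.75) and that with only the 6 libraries compared (-0.54).

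Atf4 (chr15:80085614-80087971, plus strand, 3 exons), the central transcription factor, was at 167, 143 and 119 FPKM on BME at day 1, at 120.1, 85.9 and 117 on BME at day 5, and at 139, 139 and 140.3 on BME + COL. Its level on BME + COL thus fell inside the range of BME at day 1, with a difference of -0.02 (95% interval -0.36 to 0.32, adjusted p = 0.901), and above every library of BME at day 5. The difference from day 1 was called after quantile normalization (-0.29, adjusted p = 0.0431 from limma; 0.0431 to 0.956 over the alternatives). BME at day 5 was lower than BME + COL by a log2 difference of -0.39 (SE 0.15, limma adjusted p = 0.0398; 0.029 to 0.876 over the alternatives). It was called in 11 of the 21 alternatives. Leaving out BME day 5 replicate b gave -0.23 (adjusted p = 0.0887), TPM gave -0.04, the removal of genes under 300 nt gave -0.02, and quantile normalization turned the sign (0.08). The call was also lost without BME day 1 replicate b and without any of the BME + COL libraries. From day 1 to day 5 on BME the difference was -0.41 (adjusted p = 0.0631), and without BME day 1 replicate c it was -0.54 and passed the test (adjusted p = 0.0398; 0.0398 to 0.197 over the alternatives).

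Atf5 (chr7:52067626-52072028, minus strand), a related factor whose gene ATF4 and CHOP activate, was at 58.0, 43.6 and 36.4 FPKM on BME at day 1, at 39.1, 31.6 and 44.3 on BME at day 5, and at 19.8, 18.4 and 20.9 on BME + COL. All 6 BME libraries lay above the BME + COL libraries. At day 5 it was 1.92-fold higher on BME (log2 difference 0.94, SE 0.17, limma adjusted p = 0.000749), and BME + COL was lower than BME at day 1 by -1.19 (SE 0.17, adjusted p = 0.000264). The BME days differed by -0.25 (95% interval -0.64 to 0.14). Nearly all of the signal stood on a transcript that RefSeq enters as non-coding, at 18.1 to 57.9 FPKM, while the coding entry stayed under 1 FPKM in every library. Nup62 overlaps the gene on the other strand, and whether the counting used strand is not given, so reads of the overlap may be shared.

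Ddit3 (chr10:126727849-126733344, plus strand, 4 exons) encodes CHOP. It was at 40.5, 35.6 and 33.8 FPKM on BME at day 1, at 42.1, 28.6 and 39.7 on BME at day 5, and at 25.1, 25.6 and 25.7 on BME + COL. The BME + COL libraries lay below all BME libraries, and the BME days overlapped. On BME at day 5 the level was 1.42-fold that on BME + COL (log2 difference 0.51, SE 0.14, limma adjusted p = 0.00751), the smallest of the 5 rises. The fall from BME at day 1 to BME + COL was of the same size (-0.52, SE 0.14, adjusted p = 0.0085). The BME days differed by -0.01 (95% interval -0.32 to 0.30). The 3′ end overlaps Mars on the opposite strand, with the same limit on strand.

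**Figure D3:**
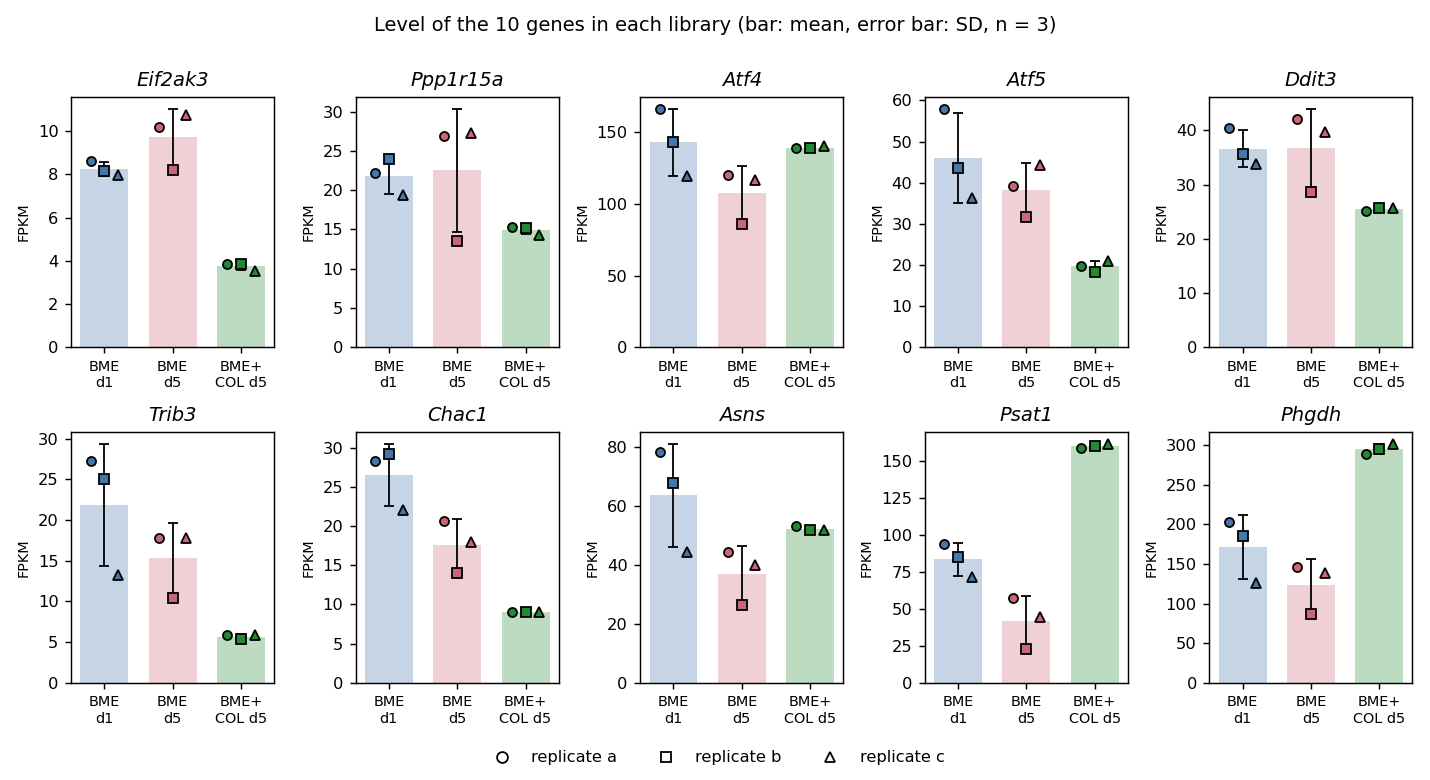
FPKM of the 10 genes in each library; bars are group means, error bars SD (n = 3), and circles, squares and triangles replicates a, b and c. Eif2ak3, Atf5, Ddit3, Trib3 and Chac1 are lowest on BME + COL, Psat1 and Phgdh are highest there, and replicate b is the lowest point on BME at day 5 in every panel.

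Trib3 (chr2:152163161-152169796, minus strand, 4 exons) encodes a pseudokinase that binds ATF4 and restrains it. It was at 27.2, 25.0 and 13.2 FPKM on BME at day 1, at 17.8, 10.4 and 17.8 on BME at day 5, and at 5.84, 5.33 and 5.88 on BME + COL. BME + COL libraries lay below all others. At day 5 the level on BME was 2.60-fold that on BME + COL (log2 difference 1.38, SE 0.28, limma adjusted p = 0.00142), which is within its error of the rise of Eif2ak3. The fall from BME at day 1 to BME + COL was larger still, at -1.86 (SE 0.28, adjusted p = 0.000333). The BME days overlapped, with a difference of -0.48 (95% interval -1.11 to 0.15, adjusted p = 0.197), and without BME day 1 replicate c it was -0.81 and passed the test (adjusted p = 0.0352; 0.0352 to 0.526 over the alternatives).

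Chac1 (chr2:119176978-119180062, plus strand, 3 exons) encodes an enzyme that cleaves glutathione. It was at 28.4, 29.3 and 22.0 FPKM on BME at day 1, at 20.6, 14.0 and 18.0 on BME at day 5, and at 8.996, 9.09 and 9.04 on BME + COL. The 3 groups did not overlap and stood in this order. It fell by 0.60 on the log2 scale between the days on BME (SE 0.15, limma adjusted p = 0.0168; 0.00912 to 0.0716 over the alternatives), and that call was lost with only the 6 libraries compared (adjusted p = 0.0716) and without BME day 1 replicate a or b. At day 5 the level on BME was still 1.91-fold that on BME + COL (0.93, SE 0.15, adjusted p = 0.0003), and BME + COL lay -1.53 from BME at day 1 (SE 0.15, adjusted p = 2.24e-05).

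Psat1 (chr19:15979613-15999549, minus strand, 9 exons) and Phgdh encode the aminotransferase and the dehydrogenase of the serine synthesis pathway, both known targets of ATF4. Psat1 was at 93.8, 85.2 and 71.6 FPKM on BME at day 1, at 57.3, 22.7 and 44.8 on BME at day 5, and at 159, 160.1 and 162 on BME + COL. The groups did not overlap, with BME + COL highest and BME at day 5 lowest. At day 5 the level on BME + COL was 4.12-fold that on BME, a log2 difference of -2.04 (SE 0.28, limma adjusted p = 0.000115), the largest difference of the 10 genes. It also fell by 1.10 between the days on BME (SE 0.28, adjusted p = 0.0193; 0.00357 to 0.0761 over the alternatives), which was lost with only the 6 libraries compared (adjusted p = 0.0761) and without BME day 1 replicate a or b. From BME at day 1 to BME + COL it rose by 0.95 (SE 0.28, adjusted p = 0.0135; 6.17e-05 to 0.0537 over the alternatives), and by 0.84 without BME day 1 replicate c, when it no longer passed (adjusted p = 0.0537).

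Phgdh (chr3:98117094-98143892, minus strand, 12 exons), the enzyme that opens the serine pathway, was at 203, 185 and 125 FPKM on BME at day 1, at 146, 87.0 and 139 on BME at day 5, and at 289, 294 and 301 on BME + COL. It was the most abundant of the 10 genes in all 3 groups, and its BME + COL libraries lay above all others. At day 5 BME + COL was 2.44-fold higher than BME (log2 difference -1.29, SE 0.22, limma adjusted p = 0.000483), and it was up by 0.82 on BME + COL relative to BME day 1 (SE 0.22, adjusted p = 0.00882). Over time on BME the difference was -0.47 (95% interval -0.96 to 0.02, adjusted p = 0.121), and -0.68 without BME day 1 replicate c (adjusted p = 0.0486; 0.0486 to 0.318 over the alternatives).

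Asns (chr6:7625171-7643182, minus strand, 12 exons), asparagine synthetase, did not rise with Psat1 and Phgdh from BME at day 1 to BME + COL. In the other comparisons its differences had the same sign as theirs. Asns was at 78.6, 68.0 and 44.4 FPKM on BME at day 1, at 44.4, 26.3 and 40.0 on BME at day 5, and at 53.4, 52.0 and 51.8 on BME + COL. The BME + COL libraries lay within the range of BME at day 1 and above those of BME at day 5. It fell by 0.78 between the days on BME (SE 0.23, limma adjusted p = 0.0321; 0.0125 to 0.108 over the alternatives), and 8 of the alternatives lost the call, among them those that leave out BME day 1 replicate a (-0.61), its replicate b (-0.71), BME day 5 replicate b (-0.55) or any of the BME + COL libraries. The difference between BME and BME + COL at day 5 was -0.54 (95% interval -1.06 to -0.02, adjusted p = 0.0557 from limma) and passed in 5 of the 21 alternatives, among them the fit to only the 6 libraries compared (adjusted p = 0.0396; 0.0251 to 0.606 over the alternatives). BME + COL differed from BME at day 1 by -0.24 (95% interval -0.76 to 0.28).

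Per transcript length, Phgdh, Atf4 and Psat1 were the most abundant of the 10 genes in every group and Eif2ak3 the least. On BME + COL no neighbours in the order of the means overlapped, from Phgdh (295 FPKM) through Psat1, Atf4, Asns, Ddit3, Atf5, Ppp1r15a, Chac1 and Trib3 to Eif2ak3 (3.75 FPKM). On BME at day 5 the order below Atf4 was Psat1, Atf5, Asns, Ddit3, Ppp1r15a, Chac1, Trib3 and Eif2ak3, and of the neighbouring pairs Atf4 with Psat1 and Ddit3 with Ppp1r15a did not overlap. On BME at day 1 Phgdh overlapped Atf4, Psat1 overlapped Asns and Chac1 overlapped Trib3, whereas Ddit3 and Chac1 did not overlap.

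The scaling between libraries moved all genes. The median difference of all genes between BME and BME + COL at day 5 was -0.18 as FPKM and 0.16 as TPM, and the share of higher among called genes went from 40.1% to 59.4%. Relative to the median of all genes tested, the 10 genes in that comparison stood at 1.56 for Trib3, 1.53 for Eif2ak3, 1.13 for Atf5, 1.11 for Chac1, 0.70 for Ppp1r15a, 0.69 for Ddit3, -0.21 for Atf4, -0.36 for Asns, -1.11 for Phgdh and -1.86 for Psat1. For the days on BME the share of higher calls went from 29.1% to 51.7% after median-ratio scaling, and from BME at day 1 to BME + COL it went from 51.8% to 35.1% as TPM. In a sample of mixed RNA, fewer cells of a kind and less RNA per cell cannot be told apart.

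Other genes of the pathway were followed as lists, whose counts are to be read beside the shares of all genes tested. Between BME and BME + COL at day 5 these shares were 30.3% higher and 45.3% lower. From day 1 to day 5 on BME they were 9.09% higher and 22.2% lower. From BME at day 1 to BME + COL they were 34.2% higher and 31.8% lower. Of 19 tested genes reported as ATF4 targets outside the 10, 8 were higher and 6 lower on BME relative to BME + COL at day 5 (median 0.41; 7 to 11 higher and 2 to 6 lower over the alternatives). The cystine transporter Slc7a11 was at 43.8, 40.7 and 34.2 FPKM on BME at day 1, at 26.8, 22.4 and 22.4 on BME at day 5, and at 2.42, 2.42 and 2.13 on BME + COL. At day 5 it differed by 3.30 (SE 0.11, limma adjusted p = 6.12e-08), whereas the large neutral amino acid transporter Slc7a5 differed by -1.72 (SE 0.31, limma adjusted p = 0.000671). Between the days on BME 10 genes of the list fell and 0 rose by the adjusted or unadjusted p of limma. Vegfa had the largest fall (-0.84, SE 0.11, limma adjusted p = 0.00128). The falls numbered 4 with only the 6 libraries compared, 5 without BME day 1 replicate a, 6 without its replicate b and 14 without its replicate c. On BME + COL relative to BME day 1, 11 fell, led by Slc7a11 (-4.03), and 1, Slc7a5, rose (0.93, limma adjusted p = 0.0241). That rise was lost with no filter on low values, after quantile normalization, without BME day 1 replicate c (0.70) and without any of the BME + COL libraries, and the rises numbered 0 to 2 over the alternatives.

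**Figure D4:**
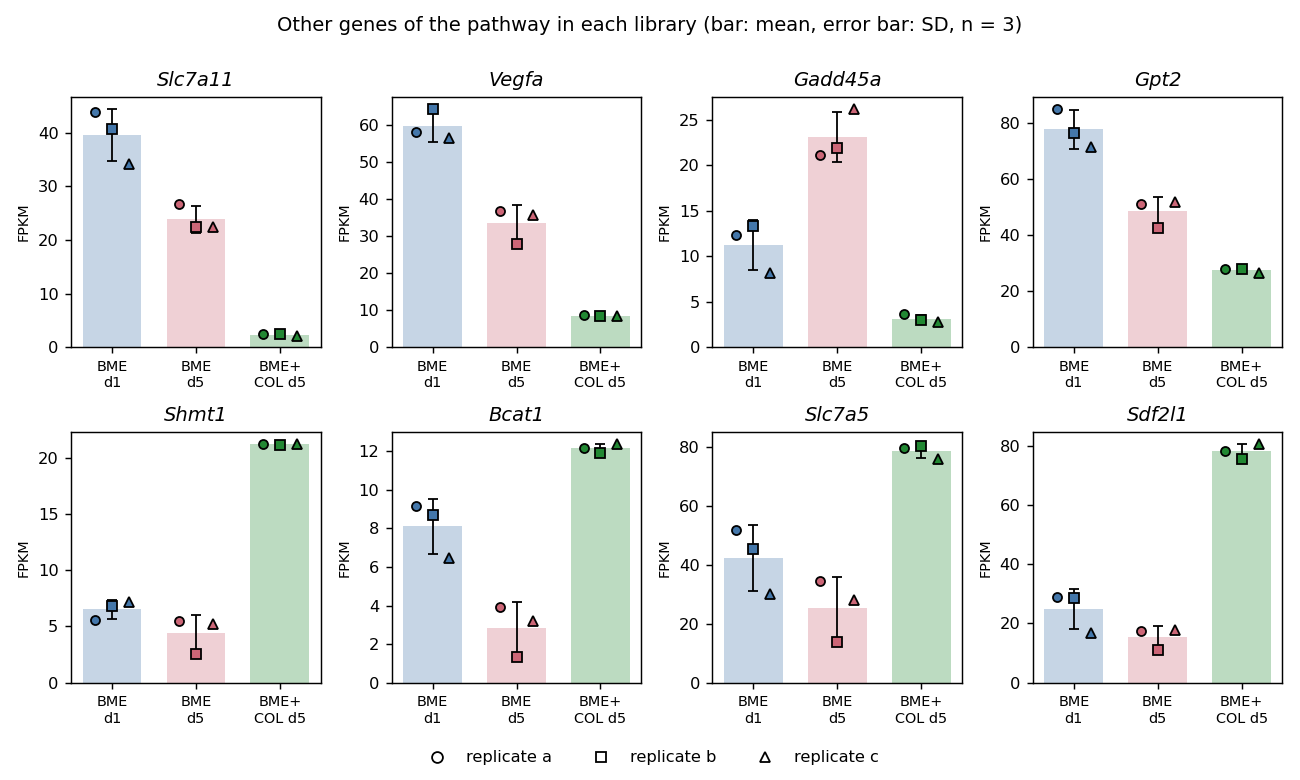
FPKM in each library of 8 further genes of the pathway, with bars at the mean, error bars of SD (n = 3) and a symbol for each replicate. Slc7a11, Vegfa, Gadd45a and Gpt2 are lowest on BME + COL, where Slc7a11 is at 2.13 to 2.42 FPKM, and Shmt1, Bcat1, Slc7a5 and Sdf2l1 are highest there.

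Most enzymes around serine differed in the same direction as Psat1 and Phgdh at day 5. Of 11 tested genes of serine, glycine and one-carbon metabolism, 8 were lower at day 5 on BME relative to BME + COL, and the count was 8 under each of the 21 alternatives as well. The mitochondrial dehydrogenase Mthfd2l was the 1 that was higher (1 to 3 over the alternatives), and the list median was -1.36. Shmt1, the cytosolic enzyme that turns serine into glycine, had the largest fall (-2.30, SE 0.24, limma adjusted p = 2.31e-05). Over time on BME 4 of these genes fell (Psph, Shmt2, Mthfd2 and Aldh1l2) and Mthfd2l rose. None fell or rose with only the 6 libraries compared or when BME day 1 replicate a or b was left out, and 7 fell without BME day 5 replicate a. On BME + COL relative to BME day 1, 7 rose (6 to 7 over the alternatives), and Psph, which encodes the phosphatase that completes serine synthesis, Mthfd2l and Aldh1l2 fell (2 to 4 over the alternatives).

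Of 10 tested enzymes of proline synthesis, transamination and transsulfuration, 9 were lower at day 5 on BME relative to BME + COL (6 to 10 over the alternatives), led by the branched-chain aminotransferase Bcat1 (-2.20, SE 0.33, limma adjusted p = 0.000196). The alanine aminotransferase Gpt2 was higher (0.82, SE 0.10, limma adjusted p = 5.89e-05). Over time on BME 7 fell and 0 rose by the adjusted or unadjusted p of limma. There was 1 fall with only the 6 libraries compared, and leaving out 1 library gave 2 (without BME day 1 replicate b) to 9 (without BME day 5 replicate a). From BME day 1 to BME + COL, Gpt2 fell by 1.495 (SE 0.10, limma adjusted p = 2.66e-06).

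Beside Eif2ak3 and Ppp1r15a, 14 genes for the other eIF2 kinases, phosphatase subunits, the eIF2B exchange factor and their regulators were tested. Of these 14, 9 were lower at day 5 on BME relative to BME + COL (6 to 10 over the alternatives). Eif2ak2 and Impact were higher (1 to 5 over the alternatives). The largest fall was that of Eif2s1, the eIF2 subunit that the kinases phosphorylate (-1.37, SE 0.11, limma adjusted p = 4.62e-06). Of the other eIF2 kinases, Eif2ak2 was higher on BME as Eif2ak3 was (0.27, adjusted p = 0.0495 from limma). The amino acid-sensing kinase Eif2ak4 was lower (-0.22, adjusted p = 0.0148 from limma), but it lay -0.04 from the median of all genes tested. That median was -0.18 as FPKM and 0.16 as TPM. The haem-regulated kinase Eif2ak1 did not pass the test (-0.02, 95% interval -0.21 to 0.17). Over time on BME 5 fell and Impact rose. There were 2 falls with only the 6 libraries compared or without BME day 1 replicate a, and 3 without its replicate b or without any of the BME + COL libraries. On BME + COL relative to BME day 1, 6 rose, led by Eif2b1 (0.98, adjusted p = 1.6e-05 from limma), and Impact fell.

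Among 13 bZIP factors and other regulators around ATF4, Cebpb, Jdp2, Nupr1 and Cebpa were higher at day 5 on BME relative to BME + COL. Fosl1, Cebpd, Atf3, Cebpg and Atf1 were lower. These 4 and 5 of 13 lay near the shares of all genes tested (30.3% higher and 45.3% lower). Cebpg changed sign as TPM (0.09) and without genes under 300 nt (0.11). Cebpb, which encodes a partner of ATF4 on its composite element, was at 15.9, 20.8 and 23.6 FPKM on BME and at 7.52, 5.95 and 7.56 on BME + COL (log2 difference 1.496, SE 0.19, limma adjusted p = 8.31e-05). Over time on BME Cebpg, Atf1 and Ep300 fell, and 0 rose by the adjusted and 1 by the unadjusted p of limma. The falls numbered 0 with only the 6 libraries compared, 0 and 1 without BME day 1 replicates a and b, 5 without its replicate c and 6 without BME day 5 replicate a. On BME + COL relative to BME day 1, 3 rose, led by Cebpd (1.24), and 5 fell, led by Cebpb (-1.25).

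Of 8 genes of cell death and redox control linked to CHOP, Gadd45a, Bcl2l11, Tnfrsf10b and Bcl2 were higher at day 5 on BME relative to BME + COL, and Gadd45b was lower. Bcl2 restrains death, whereas Bcl2l11 (BIM) and Tnfrsf10b, a death receptor, promote it. Gadd45a, a gene of growth arrest, differed most (2.84, SE 0.18, limma adjusted p = 1.14e-06) and also rose between the days on BME (1.06, adjusted p = 0.00398), as Bcl2l11 and Bcl2 did. These 3 rises became 2 with only the 6 libraries compared and when BME day 1 replicate a or b was left out. Ero1l fell (-0.36, limma adjusted p = 0.023), a call lost after any change of scaling, with only the 6 libraries compared, and without BME day 1 replicate a or b or BME day 5 replicate c. Gadd45b rose and 5 fell from BME day 1 to BME + COL.

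Of 18 genes of the XBP1 and ATF6 branches of the unfolded protein response, which make chaperones, 13 were lower at day 5 on BME relative to BME + COL (12 to 14 over the alternatives), led by Sdf2l1 (-2.36, SE 0.23, limma adjusted p = 1.39e-05). Dnajb9, Ern1 and Sel1l were higher, led by Dnajb9 (1.58, SE 0.07, limma adjusted p = 1.98e-07). Over time on BME 7 fell, led by Manf (-0.82, adjusted p = 0.0119), and 0 rose by the adjusted and 1 by the unadjusted p of limma. There were 2 falls with only the 6 libraries compared, and leaving out 1 library gave 3 (without BME day 1 replicate a or b) to 9 (without BME day 5 replicate a). The numbers from BME day 1 to BME + COL were 12 rises and 4 falls.

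**Figure D5:**
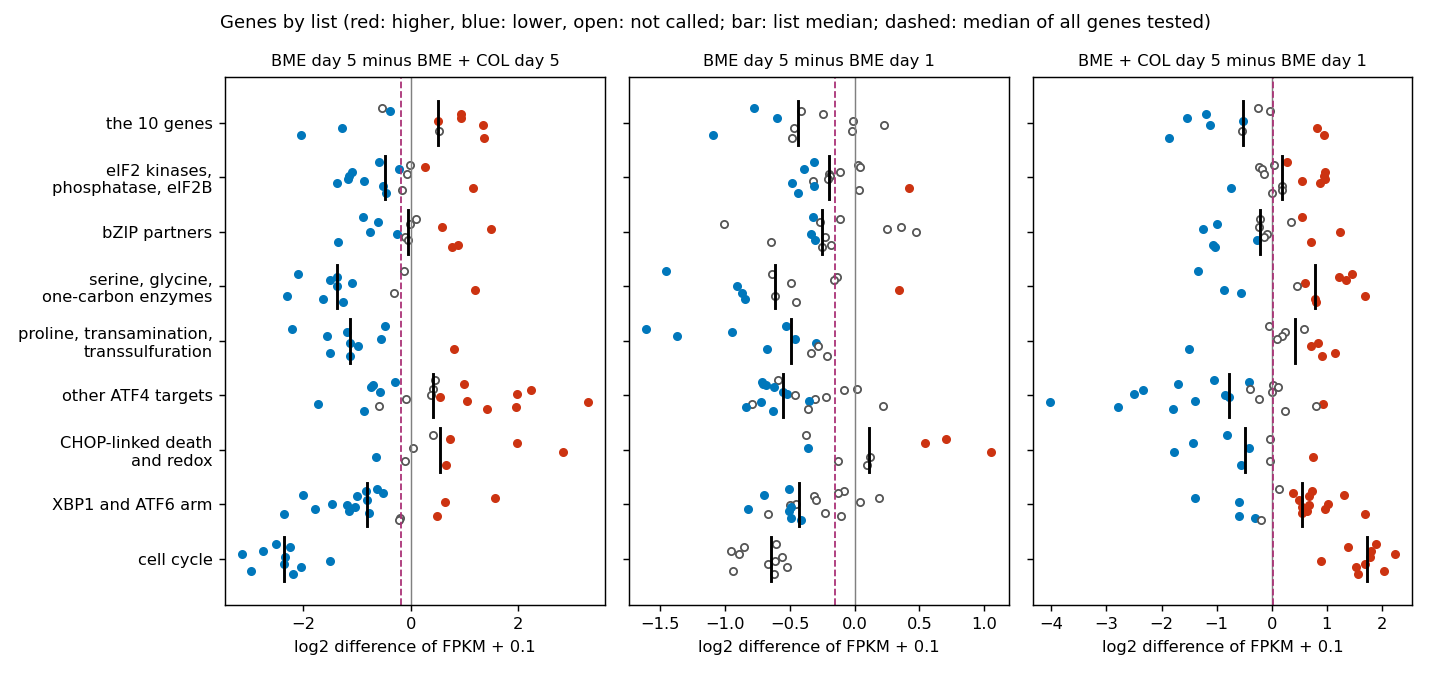
Log2 differences of the 10 genes and of 8 further lists in the 3 comparisons; each point is a gene, red if called higher, blue if called lower and open if not called, black bars are list medians and the dashed line is the median of all genes tested. Serine and one-carbon enzymes (median -1.36) and cell cycle genes (median -2.35) lie to the left between BME and BME + COL at day 5, and the other ATF4 targets spread to both sides.

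The state of the cultures changed along with these genes. At day 5 all 10 genes of a cell cycle list had lower levels on BME relative to BME + COL (median -2.35), led by Cdc20 (-3.14, SE 0.34, limma adjusted p = 2.53e-05). All 10 rose from BME at day 1 to BME + COL. None was called between the days on BME, where 4 were lower at an unadjusted p of limma under 0.05, but 7 were called lower once BME day 5 replicate a was left out, and 4 once its replicate b was. Within BME day 5, Cdc20 was at 16.4, 5.08 and 12.3 FPKM in replicates a, b and c. The part of cell division in the low values of replicate b was not tested. The part of cell division in the differences of Psat1, Phgdh and the one-carbon enzymes was not tested. Among the 10 mammary epithelial markers, Krt8, Krt18, Krt14, Cdh1 and Epcam exceeded 1 FPKM in some library, and the other 5, Krt5 and Krt19 among them, were under 1 FPKM in every library. The summed level of that list lay at 1460 to 1620 FPKM in the day 1 libraries, and at day 5 at 784 to 1170 FPKM on BME and 2350 to 2460 FPKM on BME + COL.

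Of 8 haematopoietic markers 7 were under 1 FPKM in every library, with Cd3e, Emr1 and Hbb-b1 at 0, and the list summed to 1.04 to 3.50 FPKM. Of 7 endothelial markers 6 were under 1 FPKM, with Emcn at 0. Flt1 brought that list to 14.1 to 17.3 FPKM in the day 1 libraries, and at day 5 to 10.3 to 12.6 FPKM on BME and 17.1 to 18.8 FPKM on BME + COL, and it was lower on BME (-0.69, SE 0.10, limma adjusted p = 0.000197). Of 8 fibroblast markers 5 were under 1 FPKM with Lum at 0, but Pdgfra, Pdgfrb and Col1a1 were higher on BME at day 5 than on BME + COL. The fibroblast list summed to 20.1 to 28.0 FPKM in the day 1 libraries, and at day 5 to 26.5 to 36.1 FPKM on BME and 4.56 to 4.73 FPKM on BME + COL. Pdgfrb differed between BME and BME + COL at day 5 by 4.53 (SE 0.16, limma adjusted p = 6.75e-08). Of 5 adipocyte markers 4 were under 1 FPKM, and Fabp4 brought the sum to 2.62 to 3.68 FPKM on BME at day 5, against 0.51 to 0.75 on BME at day 1 and 0.01 to 0.17 on BME + COL. The part of these markers in the differences of the 10 genes was not tested.

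For 3 of the 10 genes the profiles most like theirs were sought in a set of 7631 genes that averaged 5 FPKM or more, by the root mean square distance of log2 values over the 9 libraries after centring each gene on its mean. Atf4 had as its nearest Aldh18a1 (0.06), which opens proline synthesis, then Xpot (0.07), an exporter of tRNA, Lars (0.07), a tRNA synthetase, Stbd1 (0.07) and Tbpl1 (0.08), where the Atf4 profile itself spread by 0.25. Those of Ddit3 were Gsk3b (0.08), Kif1c, Ccny, Fam172a and Ciz1 (0.10), against a spread of 0.29. Psat1 had Steap1 (0.14), Dusp14, Dbf4, Rgs16 and Slc7a5 (0.18), against a spread of 0.90. These distances describe 9 libraries of 3 groups that share their depth and scaling, and carry no test.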

How the data were processed

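The authors sequenced 3 replicates per group on a HiSeq2500 and deposited a Cufflinks file for each library, with FPKM and a confidence interval per RefSeq transcript in the attribute text. Tools named by the submitters were Trimmomatic 0.30, TopHat2 2.0.8, CASAVA 1.8.4 and Partek, with mm9 and NCBIM37 as builds. No source used here gives a Cufflinks version, and the library kit is named differently in the series text and in the paper's methods. FPKM keep no read counts, so no count model was used.

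FPKM of 30563 transcripts were summed by gene. The 10497 genes averaging 1 FPKM or more were fitted by limma 3.58.1 (R 4.3.3) as log2(FPKM + 0.1), with the trend option and a mean per group (6 residual degrees of freedom, spread pooled over all 9 libraries). Fold changes are on that scale and understate those of low genes. Tests were two-sided, adjusted by Benjamini-Hochberg over all genes within a comparison and called under 0.05. The fit was tested on simulated data. The 10 genes and the lists were chosen with earlier results of these data known. Named genes are the 10, the largest called rise and fall of each list, members of short counts and the 5 nearest profiles of Atf4, Ddit3 and Psat1. Eif2ak1, Eif2ak4 and Pdgfrb were named after their values were seen. Some list genes are not reported here by name.

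Alternatives covered the pseudocount, the filter, the scaling, genes under 300 nt, the most abundant transcript, the libraries fitted, the trend, a replicate block and leaving out each library. Scripts used Python 3.11.15 with numpy 2.4.6, pandas 2.3.3 and matplotlib 3.10.9.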

Additional observations from a re-analysis of the deposited data

How the results depend on the processing

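Of 630 alternative values for the 10 genes, 566 kept direction and side of the threshold, 26 newly passed, 24 no longer passed and 14 turned sign. For the genes with the largest called rise or fall of each list there were 1446 values, and those numbers were 1354, 24, 56 and 12. From day 1 to day 5 on BME, 1 of the 10 genes (Eif2ak3) rose as TPM, after median-ratio scaling, after quantile normalization and without genes under 300 nt, in place of 0, and leaving out 1 library gave 0 to 2. The 3 falls became 0 with only the 6 libraries compared, and 0 to 6 on leaving out 1 library. From BME at day 1 to BME + COL, leaving out 1 library gave 1 to 2 rises. The causes were not tested. With a minimum mean of 5 FPKM Cebpd was not tested, nor were some other genes named here, among them Atf3, Bcl2 and Cebpa.

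Signs turned between BME and BME + COL at day 5 for Atf4 (0.083, quantile), Aldh1l2 (0.226 as TPM, 0.065 median-ratio, 0.248 without genes under 300 nt, -0.411 to 0.305 leaving out 1 library, highest without BME day 5 replicate b), Cebpg (0.086 as TPM, 0.108 without short genes) and Ero1l (-0.00 to 0.077 leaving out 1 library, lowest without BME day 5 replicate a). Between the days on BME they turned for Ddit3 (0.111 as TPM, 0.133 median-ratio, 0.165 quantile, 0.148 without short genes, -0.116 to 0.162 leaving out 1 library, above 0 without BME day 1 replicate a or BME day 5 replicate b), Ppp1r15a (0.102, 0.124, 0.154 and 0.139 under the same 4 changes, -0.189 to 0.315 leaving out 1 library, above 0 without BME day 1 replicate b or BME day 5 replicate b), Eif2b1 (0.009, 0.032, 0.03 and 0.046) and Gadd45b (-0.055 without BME day 1 replicate c, up to 0.234). From BME at day 1 to BME + COL, Atf4 ran from -0.147 to 0.093 leaving out 1 library, above 0 without BME day 1 replicate a. Over all genes, calls between the days on BME numbered 954 higher and 2327 lower, against 452 and 618 with only the 6 libraries compared, 1967 and 1839 with median-ratio scaling, 1903 and 2050 with quantile normalization, 1534 and 2236 as TPM, 2001 and 1647 without genes under 300 nt, 585 and 1999 with a minimum of 5 FPKM, and 533 and 1018 at the lowest leaving out 1 library (BME day 1 replicate a). The 3179 higher genes between BME and BME + COL at day 5 became 1991 with that minimum, 4858 as TPM and 5047 without genes under 300 nt.

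Same-letter deviations from the group means had correlations of -0.23 to 0.096. These values cannot show whether libraries of a letter were grown or processed together. With a replicate block 4 of the 10 genes had lower levels on BME relative to BME + COL at day 5, in place of 3, the added call being Asns (adjusted p = 0.0499 from limma, and 0.0251 to 0.606 over the alternatives), and no other call among the 10 changed. FPKM keep no counts, and at this depth the median Cufflinks interval of a transcript from 20 FPKM lay 3.7% to 3.99% to either side of its value.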
